A study of Mus musculus with 13 samples.

Results

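The 10 genes of the oncostatin M, gp130 and STAT3 axis were followed across mouse brain tissue from animals whose brain endothelium did or did not keep Pdcd10, a gene also known as Ccm3, in normal or low oxygen. They were taken by symbol from the count table and are the receptor chains Osmr, Il6st, Lifr and Il6ra, the ligands Lif and Clcf1, the transcription factor Stat3, its feedback inhibitor Socs3, and the C/EBP factors Cebpb and Cebpd. All 10 of the 10 were found among 55416 genes, and all 10 passed the filter on low counts, which left 22507 genes to test. The rule takes genes by symbol and uses no measured value, but the genes, lists and tests were chosen with earlier results of these data known. Counts set beside the share over all genes are therefore descriptions.

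The study compared 4 groups of libraries, made from total RNA of cerebral tissue. Flox animals carried loxP-flanked Pdcd10 (Pdcd10fl/fl) without Cre and were littermates of the knockouts. Knockout (KO) animals were Slco1c1-iCreERT2;Pdcd10fl/fl, in which a tamoxifen-inducible Cre under the brain endothelial Slco1c1 promoter removes Pdcd10 after 50 µg of 4-hydroxytamoxifen given on postnatal day 1. Normoxia was 21% oxygen and hypoxia was 12% oxygen for 7 days. There were 3 flox normoxia, 3 KO normoxia, 3 flox hypoxia and 4 KO hypoxia libraries. All 4 groups carried the floxed alleles. The sources used here do not give the age at harvest, and the design text does not say whether the flox animals were injected, so Cre with tamoxifen and the loss of Pdcd10 cannot be told apart. Summed neuron markers stood at 7078 to 7443 CPM in flox normoxia and 7276 to 7646 in KO normoxia. They stood at 7349 to 7572 CPM in flox hypoxia and 6791 to 6988 in KO hypoxia. Every KO hypoxia library thus lay below every library of the other groups. Astrocyte markers stood at 4765 to 5644 CPM over all libraries. The tissue is a mixture of all brain cells, in which fewer cells of a type and less RNA per cell cannot be told apart.

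Cytokines of the interleukin 6 family signal through receptors that share the gp130 chain, encoded by Il6st. Gp130 pairs with the oncostatin M receptor chain (Osmr) for oncostatin M, or with the leukemia inhibitory factor receptor chain (Lifr) for LIF and cardiotrophin-like cytokine factor (Clcf1), the latter together with the ciliary neurotrophic factor receptor. The paired chains activate JAK kinases, which phosphorylate STAT3, and STAT3 then enters the nucleus and switches on genes that include Socs3, the inhibitor that closes the loop, and Cebpd. In brain, this pathway is known for its part in the response of astrocytes to injury.

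Libraries held 42090437 to 71216636 counts. At these depths a count of 0 allows up to 0.0428 to 0.0717 CPM (counts scaled to library size, here with TMM factors), counting error only. The targeted gene was no check of genotype in whole tissue: Pdcd10 was at 16.2 to 17.8 CPM in flox normoxia, 16.2 to 18.1 in KO normoxia, 17.2 to 17.6 in flox hypoxia and 14.7 to 17.0 in KO hypoxia. One library stood apart. KO hypoxia replicate 1 was the highest of its group for 6 of the 10 genes, and its results are given below with and without it. The labels give male for all 13 libraries, but 4 held Xist and next to no Y-linked transcripts (flox normoxia 3, KO normoxia 3, KO hypoxia 3 and 4) and 9 held the reverse, so a fit with sex as a term was run beside the main one. In that fit Osmr, Lif and Stat3 kept their calls in KO against flox at both oxygen levels, as did Cebpd in hypoxia, and the calls that changed are named below. The labels name no animals. Libraries with and without Xist within flox normoxia, KO normoxia and KO hypoxia cannot come from the same animal, but the number of animals per group is not given. A p-value here therefore reflects only how far these libraries scatter, which may in part be technical.

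Loss of endothelial Pdcd10 went with more Osmr, Lif and Stat3 messenger RNA at both oxygen levels. In normoxia, 3 of the 10 genes rose in KO against flox (edgeR, adjusted p under 0.05) and 0 fell, where 1.96% of all genes tested were called higher and 0.369% lower. In hypoxia, 5 rose (Osmr, Il6st, Lif, Stat3 and Cebpd) and 0 fell, against 6.78% and 2.28% of all genes. The median log2 fold change of the 10 genes was 0.15 in normoxia and 0.46 in hypoxia (0.33 without KO hypoxia replicate 1). Over all genes tested it was -0.0036 and -0.0092. At an unadjusted p under 0.05 the counts were 3 higher and 0 lower in normoxia and 7 and 0 in hypoxia. Over all 22507 genes tested, 3053 in normoxia and 5093 in hypoxia had such a p, in either direction. DESeq2 called 3 and 6 of the 10 genes higher and 0 lower. Over all genes it called 654 higher and 200 lower of 21903 in normoxia, and 1773 and 767 of 23375 in hypoxia. These totals also stand beside the unadjusted and DESeq2 counts of KO against flox given for lists below. Of the 10, 4 had every KO library above every flox library in normoxia and 1 had every one below, while 10.5% and 8.70% of all genes did so. In hypoxia these counts were 5 and 0, with 11.5% and 9.37% over all genes.

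**Figure D1:**
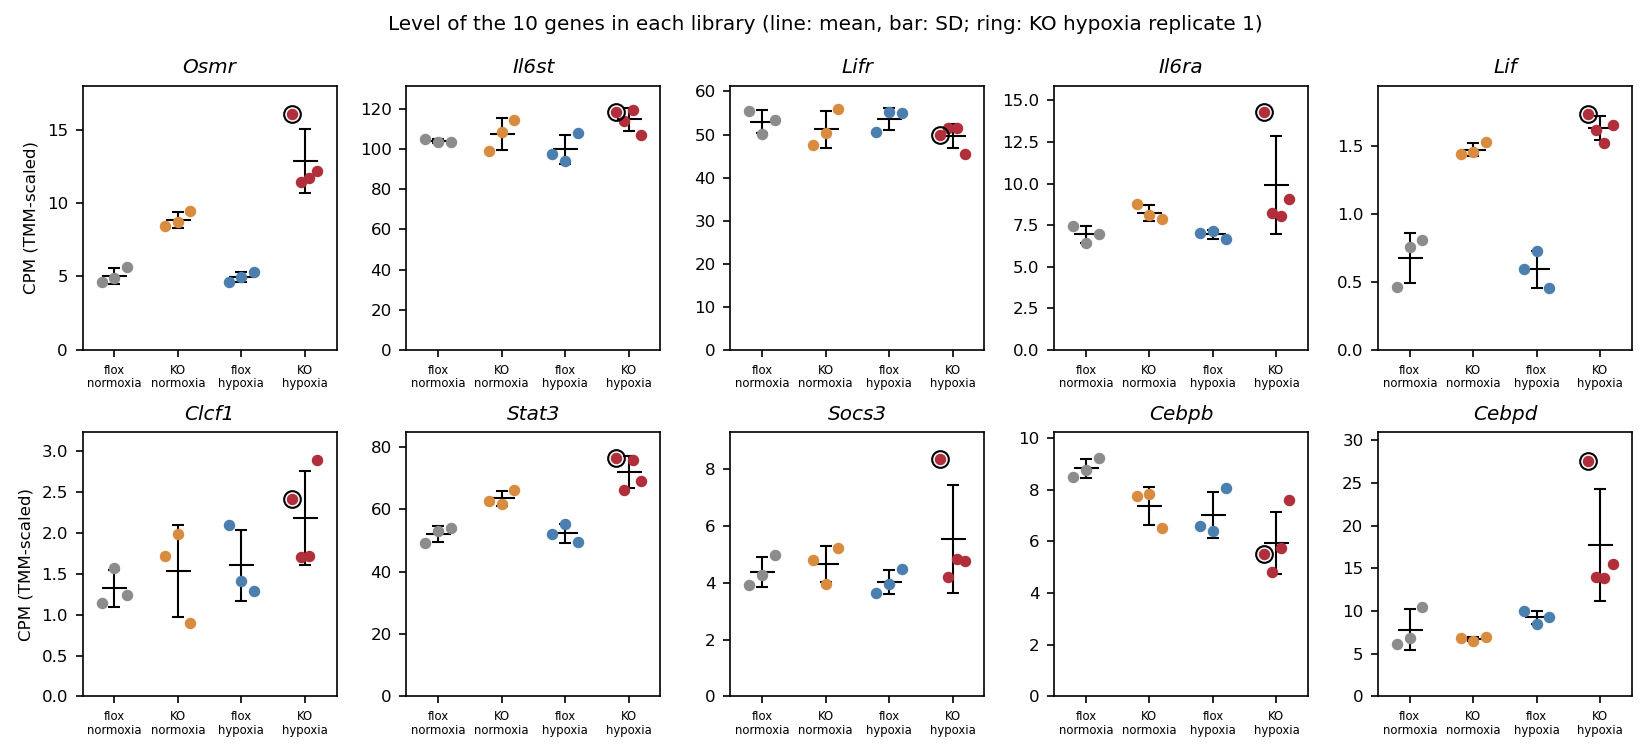
Level of each of the 10 genes in CPM (vertical axes, from 0) in every library of the 4 groups; lines are group means, bars SD, and the ring marks KO hypoxia replicate 1. Osmr, Lif and Stat3 stand above both flox groups in every KO library, while Lifr overlaps between groups and the ringed library lies apart for Osmr, Il6ra, Socs3 and Cebpd.

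Among the receptor chains, Osmr (ENSMUSG00000022146), the chain that makes a gp130 receptor answer to oncostatin M, changed most. It stood at 4.63, 4.87 and 5.67 CPM in flox normoxia and at 8.43, 8.69 and 9.48 CPM in KO normoxia. In hypoxia it was at 4.63, 4.97 and 5.28 CPM in flox and at 16.1, 11.4, 11.7 and 12.2 CPM in KO. No KO library overlapped a flox library at either oxygen level, and the flox groups overlapped each other. Osmr rose 1.75-fold in normoxia (log2 0.81 ± 0.13 SE, edgeR adjusted p = 0.0027) and 2.59-fold in hypoxia (log2 1.37 ± 0.12, edgeR adjusted p = 8.7e-06). It stayed called in both when any 1 of the 13 libraries was left out, and without KO hypoxia replicate 1 the hypoxia value was log2 1.25 ± 0.10 (edgeR adjusted p = 1.1e-06).

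Il6st (ENSMUSG00000021756), the shared gp130 chain, was far more abundant and moved little. It was at 105, 103 and 104 CPM in flox normoxia, 99.0, 108 and 115 in KO normoxia, 97.4, 94.3 and 108 in flox hypoxia, and 118, 114, 119 and 107 in KO hypoxia. The groups overlapped at both oxygen levels. The log2 difference was 0.05 ± 0.06 in normoxia (edgeR adjusted p = 0.82) and 0.20 ± 0.06 in hypoxia (edgeR adjusted p = 0.035). The hypoxia call did not hold without flox hypoxia replicate 1 (edgeR adjusted p = 0.135), flox hypoxia replicate 2 (0.184), KO hypoxia replicate 1 (0.0828) or KO hypoxia replicate 3 (0.0907), nor with sex as a term (0.0885).

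Lifr (ENSMUSG00000054263), the chain for LIF, did not pass the test in either comparison. Group means were 53.0 ± 2.63 CPM (SD, n = 3) in flox normoxia, 51.2 ± 4.25 (n = 3) in KO normoxia, 53.6 ± 2.62 (n = 3) in flox hypoxia and 49.7 ± 2.83 (n = 4) in KO hypoxia. The log2 differences of KO from flox were -0.05 ± 0.07 in normoxia and -0.11 ± 0.06 in hypoxia (edgeR adjusted p = 0.83 and 0.32). Its libraries overlapped throughout.

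Il6ra (ENSMUSG00000027947), the chain that binds interleukin 6 itself, had KO libraries above flox in both comparisons without passing the test in either. It was at 7.43, 6.41 and 6.97 CPM in flox normoxia and 8.77, 8.10 and 7.85 in KO normoxia, and at 7.02, 7.16 and 6.67 in flox hypoxia and 14.3, 8.25, 8.07 and 9.05 in KO hypoxia. The log2 differences were 0.25 ± 0.17 (edgeR adjusted p = 0.58) and 0.51 ± 0.16 (edgeR adjusted p = 0.058). The latter was 0.28 ± 0.09 without KO hypoxia replicate 1 (edgeR adjusted p = 0.076). The gene passed the test in hypoxia without KO hypoxia replicate 2 (edgeR adjusted p = 0.0283) or 3 (0.0329), with DESeq2 (0.020), without a composition factor (0.039) or a filter (0.0028), and with sex as a term (0.037).

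Because Osmr and Lifr both pair with gp130, their ratio within a library was compared on a scale per transcript length (RPKM), which needs no scaling between libraries. Osmr came to 7.44%, 8.64% and 9.46% of Lifr in flox normoxia and to 15.8%, 15.4% and 15.1% in KO normoxia. In hypoxia it came to 8.15%, 8.02% and 8.53% in flox and 28.6%, 19.8%, 20.2% and 23.8% in KO. All KO libraries lay above all flox libraries. The ratio was 1.82 times as high in KO in normoxia (two-sided exact permutation p = 0.1) and 2.77 times in hypoxia (two-sided exact permutation p = 0.057). Each p is the smallest that its group sizes allow, and both were 0.1 when adjusted over the 2 tests.

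**Figure D2:**
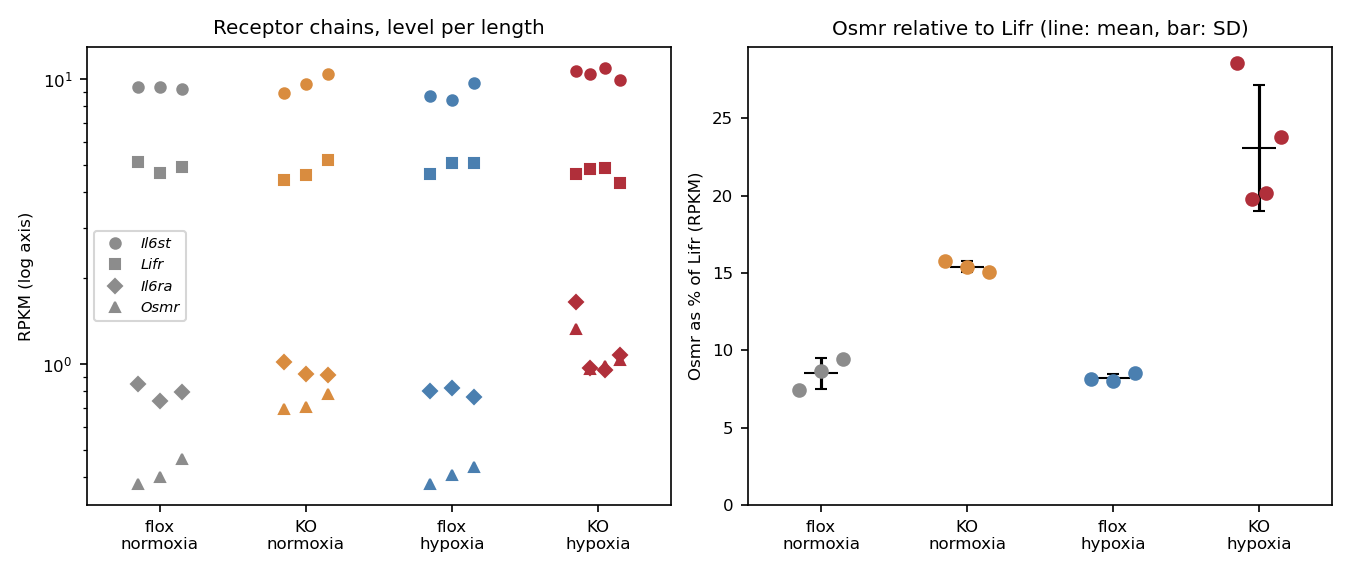
Left, RPKM of 4 receptor chains on a log axis in every library; right, Osmr as a percentage of Lifr in the same libraries, with group means (lines) and SD (bars). Il6st and Lifr stay at about the same height in all groups, whereas the ratio goes from 8.51% ± 1.02 to 15.4% ± 0.338 in normoxia and from 8.23% ± 0.267 to 23.1% ± 4.08 in hypoxia between flox and KO.

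Of 4 other receptor chains of the family, 0 were called in normoxia by edgeR or DESeq2 (1 lower at an unadjusted p under 0.05) and 1 in hypoxia, where Cntfr, the ciliary neurotrophic factor receptor, fell by 0.24 on the log2 scale (SE 0.06, edgeR adjusted p = 0.018). Over all genes tested, 2.28% were called lower in hypoxia. Cntfr was at 58.6 to 60.9 CPM in flox hypoxia and at 44.7 to 53.6 in KO hypoxia, with no overlap. The call did not hold without flox hypoxia replicate 2 or 3 (edgeR adjusted p up to 0.083), without a composition factor, or in a fit of only the libraries compared. Il11ra1, for interleukin 11, gave log2 differences of 0.02 ± 0.07 and -0.01 ± 0.06, and Il27ra 0.65 ± 0.31 and 0.26 ± 0.29, in normoxia and hypoxia, and neither was called.

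Lif (ENSMUSG00000034394), a ligand that binds Lifr with gp130, was the least abundant of the 10 genes and had the largest log2 difference. It held 26, 43 and 54 counts in flox normoxia and 68, 102 and 73 in KO normoxia, or 0.467, 0.762 and 0.808 CPM and 1.44, 1.45 and 1.53 CPM. In hypoxia it was at 0.598, 0.729 and 0.454 CPM in flox and 1.74, 1.62, 1.52 and 1.66 CPM in KO. Every KO library was above every flox library. Lif rose 2.16-fold in normoxia (log2 1.11 ± 0.22, edgeR adjusted p = 0.012) and 2.73-fold in hypoxia (log2 1.45 ± 0.21, edgeR adjusted p = 0.00044). The normoxia call did not hold without flox normoxia replicate 1, the library with the lowest value (log2 0.90 ± 0.21, edgeR adjusted p = 0.055), and the hypoxia call held without any 1 library.

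Clcf1 (ENSMUSG00000040663), the cardiotrophin-like factor, scattered widely within groups. It ranged from 1.15 to 1.58 CPM in flox normoxia, 0.900 to 1.98 in KO normoxia, 1.29 to 2.10 in flox hypoxia and 1.71 to 2.89 in KO hypoxia. The log2 differences of 0.23 ± 0.29 and 0.43 ± 0.27 did not pass (edgeR adjusted p = 0.81 and 0.38).

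Of 8 other ligands of the family, 5 had enough counts to test and 0 were called by edgeR or DESeq2 in either comparison, with 1 at an unadjusted p under 0.05 in normoxia and 3 in hypoxia. Oncostatin M itself (Osm) was near the floor, at 0.0599 to 0.248 CPM in flox normoxia, 0.148 to 0.214 in KO normoxia, 0.0429 to 0.116 in flox hypoxia and 0.179 to 0.306 in KO hypoxia. Its KO libraries lay above its flox libraries in hypoxia, with a log2 difference of 1.52 ± 0.54 that missed the threshold (edgeR adjusted p = 0.099), and the groups overlapped in normoxia (0.61 ± 0.53, edgeR adjusted p = 0.69). Il6 held between 0 and 0.068 CPM with 0 counts in 9 of the 13 libraries, and was not tested. Cntf, at 0.0359 to 0.148 CPM, was below the filter too. Il11 and Ctf1 (cardiotrophin 1) gave log2 differences in hypoxia of 0.28 ± 0.33 and 0.32 ± 0.20, neither called.

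Stat3 (ENSMUSG00000004040), the transcription factor downstream of these receptors, was at 49.3, 53.0 and 54.0 CPM in flox normoxia and 62.7, 61.6 and 66.2 in KO normoxia. In hypoxia it was at 52.03, 55.4 and 49.4 CPM in flox and 76.6, 66.3, 75.8 and 69.0 in KO. The 2 genotypes did not overlap at either oxygen level, and the flox groups did. Stat3 rose 1.22-fold in normoxia (log2 0.29 ± 0.06, edgeR adjusted p = 0.021) and 1.38-fold in hypoxia (log2 0.46 ± 0.06, edgeR adjusted p = 0.00012). The hypoxia call held in each of 13 fits that left out 1 library. The normoxia call did not hold without flox normoxia replicate 1 (edgeR adjusted p = 0.108), flox normoxia replicate 2 (0.0515), KO normoxia replicate 1 (0.0628) or KO normoxia replicate 3 (0.0916), although its log2 value stayed between 0.24 and 0.31.

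Of 14 other kinases, STATs and adaptors, 1 was called higher in normoxia (Stat6) and 3 in hypoxia, Jak3 and Stat6 among them, and 0 fell. Over all genes tested, 1.96% were called higher in normoxia and 6.78% in hypoxia. Jak3, the kinase of the common gamma chain receptors, rose by log2 0.84 ± 0.13 in hypoxia (edgeR adjusted p = 0.00085) and was called in all 13 leave-one-out fits. Stat6, which serves interleukin 4, rose by 0.49 ± 0.12 in normoxia and 0.39 ± 0.11 in hypoxia (edgeR adjusted p = 0.036 and 0.033). The normoxia call was lost in 8 of the 13 leave-one-out fits (any normoxia library, flox hypoxia 1 or 2, edgeR adjusted p up to 0.129) and the hypoxia call in 5 (flox hypoxia 1 or 2, KO hypoxia 1, 3 or 4, edgeR adjusted p up to 0.138), as well as with the replicate block, with sex as a term and with only the libraries compared. The kinases that gp130 itself uses gave values close to 0 in hypoxia: -0.03 ± 0.04 for Jak1, -0.04 ± 0.06 for Jak2 and 0.03 ± 0.07 for Tyk2. The adaptor phosphatase Ptpn11 was at 0.04 ± 0.04.

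Socs3 (ENSMUSG00000053113), which STAT3 induces and which blocks gp130 signalling, was not called in any comparison. It was at 3.93, 4.27 and 4.97 CPM in flox normoxia and 4.78, 3.95 and 5.21 in KO normoxia, and at 3.63, 3.97 and 4.47 in flox hypoxia and 8.35, 4.20, 4.82 and 4.77 in KO hypoxia. The genotypes overlapped at both oxygen levels. The log2 difference was 0.08 ± 0.21 in normoxia and 0.47 ± 0.20 in hypoxia (edgeR adjusted p = 0.93 and 0.17). KO hypoxia replicate 1 was 1.82 times the mean of the other 3 libraries, and without it the hypoxia difference was 0.20 ± 0.13 (edgeR adjusted p = 0.47).

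Of 15 other negative regulators, edgeR called 0 in normoxia, with 3 higher and 1 lower at an unadjusted p under 0.05 and 1 higher called by DESeq2. In hypoxia 1 of the 15 was called higher and 1 lower, where 6.78% and 2.28% of all genes were, so the counts are not set apart from that share. Ptpn6, the phosphatase SHP-1 of blood cells, rose by log2 0.69 ± 0.20 (edgeR adjusted p = 0.040), and Socs5 fell by 0.15 on the log2 scale (SE 0.04, edgeR adjusted p = 0.030). Neither call held without KO hypoxia replicate 1 (edgeR adjusted p = 0.0707 and 0.0824), and in all they were lost in 7 and 4 of 13 leave-one-out fits (for Ptpn6 KO normoxia 1 or 3, any flox hypoxia library, KO hypoxia 1 or 3, for Socs5 flox hypoxia 1 or 2, KO hypoxia 1 or 4, edgeR adjusted p up to 0.170 and 0.162). The Socs5 call was also lost without a composition factor, without a filter, with the replicate block, with sex as a term and with only the libraries compared, the last of which lost the Ptpn6 call too. Socs1 and Pias3, inhibitors of JAK kinases and of STAT3 binding to DNA, gave 0.11 ± 0.22 and 0.00 ± 0.06 in hypoxia, and Ptprt and Socs7 -0.04 ± 0.06 and -0.13 ± 0.04, none called.

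Of the 2 C/EBP factors, Cebpd was called in hypoxia and Cebpb in neither comparison. Cebpd (ENSMUSG00000071637), an early gene of the acute-phase response and a STAT3 target, was at 6.10, 6.87 and 10.5 CPM in flox normoxia, 6.80, 6.46 and 6.99 in KO normoxia, 10.03, 8.51 and 9.27 in flox hypoxia, and 27.5, 14.02, 13.9 and 15.5 in KO hypoxia. All 4 KO hypoxia libraries lay above every library of the other groups, and in normoxia the genotypes overlapped. Cebpd rose 1.91-fold in KO against flox in hypoxia (log2 0.93 ± 0.22 or, without KO hypoxia replicate 1, 0.64 ± 0.15, edgeR adjusted p = 0.013 and 0.014). Its difference in normoxia was -0.22 ± 0.24 (edgeR adjusted p = 0.76). The hypoxia call did not hold without flox hypoxia replicate 2 (edgeR adjusted p = 0.0744) or 3 (0.0511).

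Cebpb (ENSMUSG00000056501), the nuclear factor for interleukin 6, lay lower in KO means than in flox means at both oxygen levels and was not called. Its means were 8.83 ± 0.376 CPM (SD, n = 3) in flox normoxia, 7.38 ± 0.735 (n = 3) in KO normoxia, 7.02 ± 0.899 (n = 3) in flox hypoxia and 5.93 ± 1.20 (n = 4) in KO hypoxia. The log2 differences of KO from flox were -0.26 ± 0.14 and -0.25 ± 0.13 (edgeR adjusted p = 0.45 and 0.30). In normoxia the genotypes did not overlap, and in hypoxia they did. Exons of Cebpb overlap on the opposite strand with Tmem189 (31.0 CPM) in the GENCODE annotation of build GRCm38, those of Stat3 with Stat5a (2.74 CPM) and those of Cebpd with Spidr (2.32 CPM). The strand setting of the counting is not given in the sources used here, so reads of these pairs cannot be told apart.

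Of 5 other genes listed as C/EBP factors by name, 4 had enough counts to test. In normoxia 0 were called, and in hypoxia 1 was called lower, where 2.28% of all genes were. Cebpz, named for its CCAAT binding, fell by 0.18 on the log2 scale in hypoxia (SE 0.05, edgeR adjusted p = 0.030). The call was lost in 6 of 13 leave-one-out fits (any flox hypoxia library, KO hypoxia 2, 3 or 4, edgeR adjusted p up to 0.142). It was also lost in 5 alternatives. These were the fits without a composition factor, without a filter, with the replicate block, with a sex term and with only the libraries compared. Cebpa and Cebpg were not called, at -0.23 ± 0.08 and 0.09 ± 0.06.

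**Figure D3:**
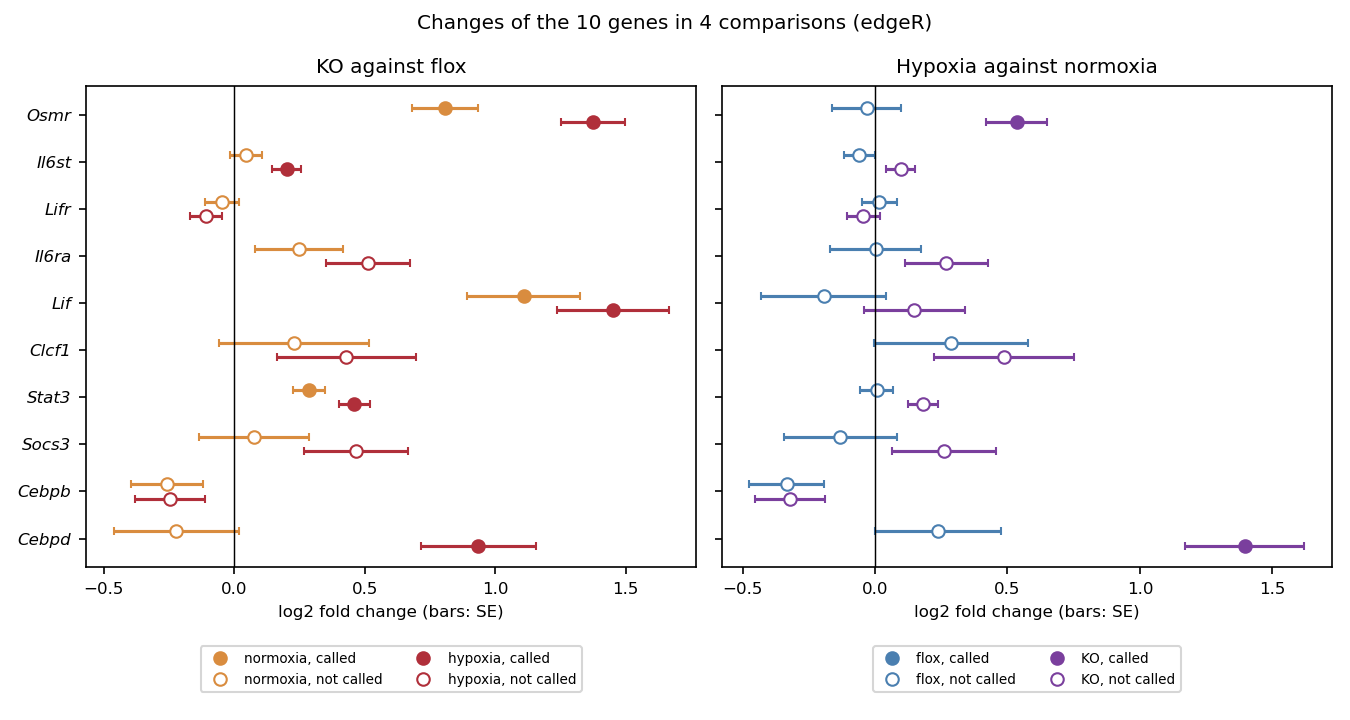
Log2 fold changes (horizontal axes, bars SE) of the 10 genes from edgeR, left for KO against flox in normoxia and hypoxia, right for hypoxia against normoxia in flox and KO; filled points passed an adjusted p of 0.05. Osmr, Lif and Stat3 are filled in both KO comparisons, and to the right 0 points are filled in flox and 2, Osmr and Cebpd, in KO.

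Low oxygen by itself was compared within each genotype, and this comparison shares its libraries with those above. In flox animals 0 of the 10 genes were called by edgeR or DESeq2, and 1 had an unadjusted p under 0.05. Over all genes tested, edgeR called 0.0222% higher and 0% lower, and 1497 of 22507 had an unadjusted p under 0.05. DESeq2 called 67 of 21903 genes. The largest difference among the 10 genes was that of Cebpb, at -0.33 ± 0.14 (edgeR adjusted p = 0.70), with every hypoxia library below every normoxia library. That pattern was shown by 5.98% of all genes, and the reverse by 6.56%.

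In KO animals 2 of the 10 genes rose in hypoxia and 0 fell, with 0.622% of all genes called higher and 0.275% lower. Cebpd rose 2.63-fold (log2 1.40 ± 0.23, edgeR adjusted p = 0.015) and Osmr 1.45-fold (log2 0.54 ± 0.12, edgeR adjusted p = 0.044). Every hypoxia library was above every normoxia library for these and for Stat3, 3 of the 10 genes (6.59% of all genes, with 6.04% below), and Stat3 was not called (0.18 ± 0.06, edgeR adjusted p = 0.15). Without KO hypoxia replicate 1, Cebpd was at 1.10 ± 0.15 (edgeR adjusted p = 0.0035) and Osmr at 0.41 ± 0.09 (edgeR adjusted p = 0.065). The Osmr call was lost in 10 of 13 leave-one-out fits (edgeR adjusted p up to 0.196), all but those without flox normoxia 1, flox normoxia 3 or KO hypoxia 2, and with sex as a term (edgeR adjusted p = 0.051). The Cebpd call was lost without KO normoxia replicate 1, 2 or 3 (edgeR adjusted p = 0.0642, 0.0969 and 0.0733).

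Whether the effect of genotype differed between oxygen levels was tested as an interaction. None of the 22507 genes passed in edgeR, although 1635 genes, 2 of the 10 among them, had an unadjusted p under 0.05, and DESeq2 called 3. Without a filter edgeR called 55 genes, Cebpd among them (log2 1.16 ± 0.20, edgeR adjusted p = 0.0020), and 1 gene was called with the replicate block and 1 without KO normoxia replicate 3. With the filter Cebpd had the largest difference of effects among the 10 genes (log2 1.16 ± 0.32, unadjusted p = 0.0027, edgeR adjusted p = 0.56), followed by Osmr (0.57 ± 0.17, unadjusted p = 0.0051, edgeR adjusted p = 0.60). Without KO hypoxia replicate 1 these were 0.86 ± 0.21 and 0.44 ± 0.13. A different response at the 2 oxygen levels was thus not shown for Osmr, and for Cebpd it was called under 1 alternative, the fit without a filter.

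Genes known as targets of STAT3 or C/EBP factors were taken as a list of 29, of which 27 had enough counts to test. In normoxia 4 were called higher in KO (Gfap, Vim, Icam1 and Vegfa) and 0 lower, with a median log2 difference of 0.15, where 1.96% and 0.369% of all genes were called and their median was -0.0036. At an unadjusted p under 0.05 there were 7 higher and 3 lower, where 3053 of all 22507 genes had such a p. DESeq2 called 5 and 0, and over all genes 654 higher and 200 lower of 21903. Lower calls among the targets did appear without a filter (Fosl2, Pim3 and Serpina3n), where 255 of all 38833 genes were called lower. Serpina3n was also called lower without KO normoxia replicate 3 (log2 -1.62 ± 0.22, edgeR adjusted p = 0.0016). In hypoxia 11 were called higher and 0 lower, with a median of 0.58, or 8 and 0.39 without KO hypoxia replicate 1, where 6.78% and 2.28% of all genes were called higher and lower and their median was -0.0092. At an unadjusted p under 0.05 there were 19 higher and 1 lower in hypoxia, where 5093 of all 22507 genes had such a p. DESeq2 called 12 and 0, and over all genes 1773 higher and 767 lower of 23375. Without a filter 1 target was called lower (Junb), as were 689 of all 38833 genes. The remaining 16 targets did not pass in hypoxia.

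The 2 intermediate filament genes of reactive astrocytes had the smallest adjusted p-values of the list at both oxygen levels. Vim was at 27.8, 30.6 and 28.7 CPM in flox normoxia, 83.3, 78.0 and 80.4 in KO normoxia, 34.1, 34.4 and 37.9 in flox hypoxia, and 211, 112, 126 and 134 in KO hypoxia. Gfap ranged from 403 to 471 CPM in flox normoxia, 1150 to 1214 in KO normoxia, 416 to 449 in flox hypoxia and 918 to 1732 in KO hypoxia. For both genes every KO library was above every flox library. Vim rose by log2 1.47 ± 0.16 in normoxia and 2.04 ± 0.16 in hypoxia (edgeR adjusted p = 0.00017 and 5.2e-06), and Gfap by 1.43 ± 0.15 and 1.67 ± 0.15 (edgeR adjusted p = 0.00013 and 8.4e-06).

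Other targets that rose in hypoxia were the protease inhibitor A2m (log2 1.83 ± 0.20, edgeR adjusted p = 4.0e-05), the adhesion molecule Icam1 (1.64 ± 0.21, edgeR adjusted p = 0.00014), the cell cycle gene Ccnd1 (0.58 ± 0.09, edgeR adjusted p = 0.00089) and the endotoxin co-receptor Cd14 (1.17 ± 0.22, edgeR adjusted p = 0.0029). These, Vim and Gfap were called in all 13 leave-one-out fits of that comparison. Vegfa (0.47 ± 0.10) and Bcl3 (1.66 ± 0.38) were each lost in 1 of them, without flox hypoxia replicate 2 (edgeR adjusted p = 0.0508) and flox hypoxia replicate 1 (0.0714). In normoxia the calls of Icam1 (1.04 ± 0.22) and Vegfa (0.46 ± 0.10) were lost in 5 fits (flox normoxia 2 or 3, any KO normoxia library, edgeR adjusted p up to 0.0894) and 3 fits (flox normoxia 1 or 2, KO normoxia 1, edgeR adjusted p up to 0.154).

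Hp, Steap4 and Lcn2, acute-phase genes for haptoglobin, a metalloreductase and lipocalin 2, were called in hypoxia with all libraries (Hp at log2 2.30 ± 0.62 and Steap4 at 1.60 ± 0.43, edgeR adjusted p = 0.030 for each) and not without KO hypoxia replicate 1 (1.62 ± 0.55 and 1.34 ± 0.44, edgeR adjusted p = 0.0971 and 0.0897). The 2 calls were also lost without flox hypoxia 1 or 2, that of Hp without flox hypoxia 3 and that of Steap4 without KO hypoxia 4 (edgeR adjusted p up to 0.122), and both with the 1 CPM filter and with the replicate block. Lcn2 was at 10 CPM in that library and at 0.144, 0.464 and 0.403 in the other 3, and its log2 difference was 4.26 ± 1.27 with it and 1.24 ± 0.50 without it (edgeR adjusted p = 0.048 and 0.17), a call lost in 10 of 13 leave-one-out fits, all but those without KO hypoxia 2, 3 or 4. The Lcn2 call was also absent with DESeq2, the 1 CPM filter, the replicate block and only the libraries compared. A gene without at least 1 CPM in 3 libraries is not tested under that filter and counts here as a lost call. Junb and Bcl2l1, the most abundant targets that did not pass, were at -0.49 ± 0.26 and 0.04 ± 0.05 in hypoxia.

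**Figure D4:**
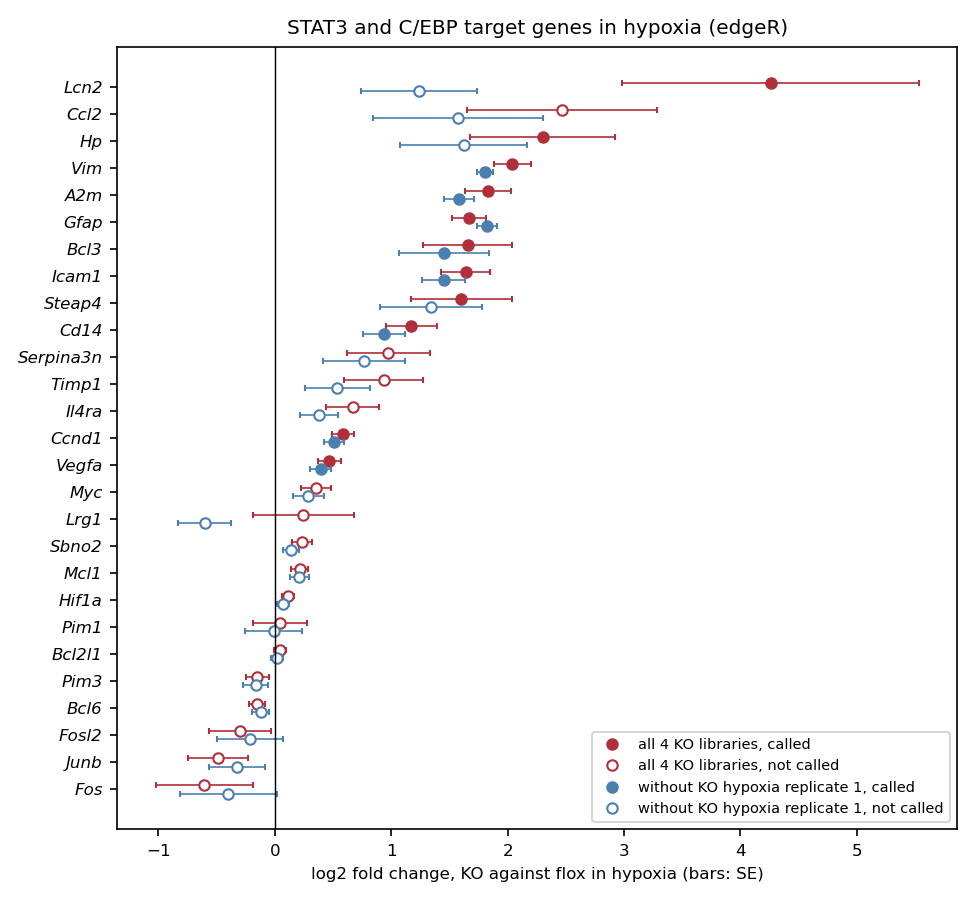
Log2 fold change of KO against flox in hypoxia (horizontal axis, bars SE) for the 27 tested target genes, with all 4 KO libraries (red) and without KO hypoxia replicate 1 (blue); filled points passed an adjusted p of 0.05. Vim, A2m, Gfap, Bcl3, Icam1, Cd14, Ccnd1 and Vegfa are filled in both colours, and Lcn2, Hp and Steap4 in red alone.

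The 250 bases before the start of each gene were searched for the STAT motif TTCNNNGAA and the C/EBP motif TTGCNNAA on both strands (the STAT motif reads the same on either), in RefSeq promoters of build GRCm38.p6. Of the 10 genes, 8 had an entry (not Clcf1 or Cebpd), of which 1, Socs3, held the STAT motif and 0 the C/EBP motif. Of the 29 targets, 23 had an entry, with the STAT motif in 4 (Bcl6, Sbno2, Steap4 and Icam1) and the C/EBP motif in 3 (Lcn2, Saa3 and Steap4). Over all RefSeq genes, 8.13% held the STAT motif and 10.8% the C/EBP motif. Shown in gene sense, with motifs in capitals, are Osmr, which rose and holds neither (chr15:6874314-6874563, minus strand), Socs3, which holds the STAT motif and was not called (chr11:117969367-117969616, minus strand), and the called targets Steap4 (chr5:7960222-7960471, plus strand) and Icam1 (chr9:21015690-21015939, plus strand).
Osmr: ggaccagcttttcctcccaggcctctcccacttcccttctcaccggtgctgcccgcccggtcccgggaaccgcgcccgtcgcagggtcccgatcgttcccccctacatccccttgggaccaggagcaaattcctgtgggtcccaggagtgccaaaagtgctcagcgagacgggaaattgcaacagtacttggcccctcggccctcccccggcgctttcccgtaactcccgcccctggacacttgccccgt
Socs3: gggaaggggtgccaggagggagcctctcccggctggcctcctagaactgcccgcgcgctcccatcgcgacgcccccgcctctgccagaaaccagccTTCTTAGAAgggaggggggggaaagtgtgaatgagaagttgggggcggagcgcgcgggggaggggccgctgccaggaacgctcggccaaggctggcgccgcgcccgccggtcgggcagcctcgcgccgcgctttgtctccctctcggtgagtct
Steap4: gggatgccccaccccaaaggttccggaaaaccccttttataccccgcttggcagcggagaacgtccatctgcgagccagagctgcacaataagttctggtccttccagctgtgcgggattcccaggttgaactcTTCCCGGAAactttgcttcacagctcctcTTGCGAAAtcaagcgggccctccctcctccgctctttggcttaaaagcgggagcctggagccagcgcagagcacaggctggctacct
Icam1: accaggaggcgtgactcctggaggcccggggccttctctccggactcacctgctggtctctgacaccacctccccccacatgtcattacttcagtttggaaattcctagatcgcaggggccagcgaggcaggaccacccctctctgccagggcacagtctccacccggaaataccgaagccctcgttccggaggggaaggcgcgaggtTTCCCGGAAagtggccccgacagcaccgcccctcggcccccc

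The Socs3 motif TTCTTAGAA begins 154 bases before the start, and TTCCCGGAA occurs in both Steap4 and Icam1, 116 and 42 bases before theirs. In Steap4 the C/EBP match TTGCGAAA follows, 87 bases before the start. A match is a description of the letters and not a measured binding site.

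On the scale per length, the order of the 10 genes was led by the gp130 chain in every group. In flox normoxia Il6st was at 9.32 RPKM, followed by Cebpb (5.83), Stat3 (5.43), Lifr (4.88), Cebpd (2.08), Socs3 (1.51), Il6ra (0.798), Osmr (0.415), Clcf1 (0.345) and Lif (0.155). Cebpb and Stat3, Cebpd and Socs3, and Osmr and Clcf1 overlapped between libraries, and the other neighbours did not. In KO hypoxia the order was Il6st (10.5 RPKM), Stat3 (7.64), Cebpd (4.78), Lifr (4.67), Cebpb (4.00), Socs3 (1.93), Il6ra (1.16), Osmr (1.07), Clcf1 (0.581) and Lif (0.380). There, the 4 genes from Stat3 to Cebpb overlapped each with the next, as did Socs3, Il6ra and Osmr.

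Genes with the most similar pattern were sought among 14008 genes by the root mean square difference of centred log2 CPM over the 13 libraries. For Osmr they were Msn (0.0928), Fli1, Tinagl1, Mxra8 and Cnn2, all within the nearest 6 when KO hypoxia replicate 1 was left out. Msn had means of 24.9, 45.4, 26.8 and 65.3 CPM in flox normoxia, KO normoxia, flox hypoxia and KO hypoxia. For Stat3 they were Me1 (0.0671), Mob1a, Slc7a11, Grn and Gusb, which were within the nearest 11 without that library. For Socs3 they were Emilin2 (0.123), Serpinf1, Nupr1, Ftl2-ps and Igfbp2, which fell to places 40 to 621 without it.

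Markers of several cell types moved with the same groups as Osmr, Lif and Stat3. Over all genes tested, 1.96% were called higher and 0.369% lower in KO in normoxia, and 6.78% and 2.28% in hypoxia. Of 10 endothelial markers, 9 were called higher in KO in normoxia and 10 in hypoxia. Their summed level was 145 to 157 CPM in flox normoxia, 277 to 303 in KO normoxia, 197 to 218 in flox hypoxia and 348 to 513 in KO hypoxia. It was higher in flox hypoxia than in flox normoxia without overlap. Of 7 pericyte markers, 6 were called higher at both oxygen levels, with sums of 180 to 209, 326 to 353, 244 to 250 and 387 to 503 CPM in the same order.

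Microglia markers were called in hypoxia, 6 of 8 higher (4 without KO hypoxia replicate 1), and 0 of 8 in normoxia, with sums of 273 to 287, 313 to 327, 274 to 287 and 329 to 413 CPM. Of 10 astrocyte markers (not Gfap or Vim), 1 was higher and 1 lower in normoxia, and 3 were higher and 1 lower in hypoxia. In normoxia 7 of the 10 had a log2 difference above 0 (median 0.068) and in hypoxia 8 (median 0.081). Their summed level was 5395 to 5644 CPM in flox normoxia and 5124 to 5423 in KO normoxia. On average it was lowest in KO hypoxia, at 4765 to 5204 CPM, beside 5191 to 5288 in flox hypoxia, with overlap. Neutrophil and monocyte markers came to 8.08 to 10.5 CPM in flox hypoxia and 12.8 to 32.6 in KO hypoxia, with 3 of 5 tested called higher, or 0 of 5 without KO hypoxia replicate 1. In normoxia they came to 7.05 to 9.98 CPM in flox and 10.4 to 12.2 in KO, with 0 of 5 called. Erythroid markers came to 139 to 262 CPM in flox normoxia and 974 to 1701 in KO normoxia, with 5 of 7 called higher, and to 449 to 671 and 3409 to 17401 in hypoxia, with 7 of 7 called, or 6 without that library. The highest sums of both lists were in KO hypoxia replicate 1. Choroid plexus markers came to 8.78 CPM in KO normoxia replicate 2 and to 305 to 515 CPM in the other 12 libraries, with 0 of 5 called in KO against flox at either oxygen level, and Osmr, Lif and Stat3 stayed called in normoxia without that library. Ly6g, which defines neutrophils, was at 0 in all KO normoxia and flox hypoxia libraries. Of 5 border macrophage markers, 1 was called higher in normoxia and 4 in hypoxia (2 without KO hypoxia replicate 1), with sums of 10.3 to 11.3, 14.04 to 17.9, 8.05 to 8.32 and 15.2 to 27.8 CPM in flox normoxia, KO normoxia, flox hypoxia and KO hypoxia. Of 7 meningeal fibroblast markers, 0 were called in normoxia and 5 were higher in hypoxia, with sums of 131 to 153, 148 to 178, 122 to 125 and 142 to 222 CPM. Of 4 tested T and B lymphocyte markers, 2 were higher in normoxia and 1 in hypoxia (0 without that library), at sums of 0.460 to 0.748, 1.76 to 1.99, 0.836 to 1.31 and 2.33 to 3.04 CPM. Other lists went the other way. Of 7 neuron markers, 0 were called in normoxia and 1 was lower in hypoxia, where 0 had a log2 difference above 0 (median -0.094). Of 6 oligodendrocyte markers, 1 was lower in normoxia, where 0 had a log2 difference above 0 (median -0.33). In hypoxia 0 of the 6 were called (median -0.058). The part of these cell types in the values of the 10 genes was not tested.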

How the data were processed

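Libraries were made from 50 ng of cerebral RNA with an integrity number above 8.0 by a stranded mRNA kit, per the labels' protocols and the design text. The authors deposited raw counts per gene and RPKM values for 13 libraries. Per the submitters' processing notes, which give no versions, HISAT2, edgeR and build GRCm39 were used. The counting's annotation and strand setting are not given in these sources. The deposited RPKM equals the count over the library total and 1 length per gene, so it carries no composition factor.

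Counts were tested with edgeR 4.0.16 (quasi-likelihood F test, TMM scaling, filterByExpr, 1 mean per group over all 13 libraries), with Benjamini-Hochberg adjustment over the 22507 genes of each contrast and a threshold of 0.05. Of 55416 genes, 52083 had a symbol. SE was taken from the F statistic. The script was tested on simulated data. Ratios were compared by two-sided exact permutation. No 2 libraries of a group agreed within sampling noise (chi-square per degree of freedom at least 4.44). Alternatives were RLE or no composition factor, 2 other filters, DESeq2 1.42.0, a replicate block, a sex term, a fit of just the compared libraries, and 13 fits that each omitted 1 library.

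The members, lists and tests were chosen with earlier results of these data known. Genes named were the members, 13 pathway genes fixed by name, up to 6 called and 2 uncalled genes per list, and the 5 most similar genes for Osmr, Stat3 and Socs3. Hp, Steap4, Lcn2, Vegfa, Bcl3, Fosl2, Pim3 and Serpina3n were named beyond that rule, after their values were seen. Results for some listed genes are not reported here.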

Additional observations from a re-analysis of the deposited data

Results flagged for a closer look

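In KO hypoxia, the only group of 4, replicate 1 lay far from the other 3 libraries for 4 of the 10 genes: its gap to the nearest library took most of the group's range, past Dixon's critical value. Osmr was at 16.1 CPM in this library and 11.4 to 12.2 CPM in the others. Il6ra was at 14.3 CPM and 8.07 to 9.05 CPM. Socs3 was at 8.35 CPM and 4.20 to 4.82 CPM. Cebpd was at 27.5 CPM and 13.9 to 15.5 CPM. Of 11 sets of values tested in that group (the 10 genes and the Osmr to Lifr ratio), these 4 were flagged. Chance flags about 1 in 20 groups, and the flags share 1 library, so they are not independent. The same library held the highest summed erythroid (17401 CPM) and neutrophil and monocyte (32.6 CPM) marker levels, whose part in these values was not tested.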

How the results depend on the processing

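No alternative reversed a called member. Osmr in both KO comparisons, Lif and Stat3 in hypoxia were called under all 21 alternatives. The count of members called higher ran from 1 to 3 in normoxia (1 without flox normoxia replicate 1), 3 to 6 in hypoxia (3 without flox hypoxia replicate 2) and 0 to 2 for hypoxia in KO when 1 library was left out. The last was 1 with the replicate block, 1 with sex as a term and 0 with only the libraries compared. Replicate numbers did not pair the libraries (correlations of deviations from -0.0162 to 0.0902). With the replicate block, Il6ra was called in hypoxia (log2 0.52, edgeR adjusted p = 0.0486) and Osmr lost its call for hypoxia in KO (0.0727). The interaction called 1 member, Cebpd, without a filter. Target genes called higher in hypoxia were 17 without a filter, where 1832 of all 38833 genes were called higher. With at least 1 CPM in 3 libraries 7 target genes were, and 1434 of all 17161 genes. On leaving out 1 library the target genes called higher were 7 to 14 (7 without flox hypoxia replicate 1 or 2). Genes that a filter removed counted as not called. In normoxia the target genes called higher on leaving out 1 library were 2 to 5 (2 without flox normoxia replicate 2 or KO normoxia replicate 1). Without a composition factor, calls over all genes in hypoxia split into 1746 higher and 243 lower, beside 1526 and 513.

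The values that changed sign were uncalled and near 0, and the cause was not tested. For hypoxia in flox, Il6ra was at -0.0061 without a filter, -0.0017 with the 1 CPM filter and -0.068 with sex as a term, and Stat3 at -0.0031 without a filter. The interaction of Cebpb was -0.13 with the replicate block and -0.055 with sex as a term. On leaving out 1 library, ranges spanned 0 for KO against flox in normoxia (Il6st -0.0064 to 0.10, Lifr -0.12 to 0.0029, Clcf1 -0.016 to 0.49, Socs3 -0.017 to 0.19, Cebpd -0.37 to 0.055), for hypoxia in flox (Osmr -0.094 to 0.060, Lifr -0.021 to 0.057, Il6ra -0.050 to 0.051, Stat3 -0.038 to 0.044), for hypoxia in KO (Lifr -0.096 to 0.019, Socs3 -0.010 to 0.38) and for the interaction (Lifr -0.11 to 0.0048, Clcf1 -0.060 to 0.45, Cebpb -0.12 to 0.12). Low counts limit Lif, Clcf1, Osm and Il6.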
